A study of Mus musculus with 12 samples.

Results

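The genes described here are 10 components of the circadian clock: Per1, Per2, Per3, Cry1, Cry2, Bhlhe40, Nr1d1, Nr1d2, Dbp and Tef. They were taken by name, as every probe set that the platform annotation assigns to exactly 1 of these symbols, which gave 17 of the 22690 probe sets on the array. All 10 genes had a probe set. They were measured in mouse striatum, nucleus accumbens included, in cocaine-treated SRF mutants, saline-treated SRF mutants, cocaine-treated controls and saline-treated controls, with 3 arrays in each of the 4 groups. Cocaine, which blocks dopamine reuptake, was injected into the peritoneum at 25 mg/kg, and tissue was taken 1 hour later. All animals were female littermates 10 to 15 weeks old that had been caged singly and handled for 5 days. Groups follow the sample titles. The treatment text gives cocaine for every sample and the description field assigns other groups, so the saline arm rests on the titles and the series design. How Srf was altered, in which cells, and the time of day at which tissue was taken are not stated in the labels.

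The mammalian clock is a transcriptional feedback loop. CLOCK or NPAS2 pairs with BMAL1 (gene Arntl) on E-boxes and drives the Per, Cry, Nr1d, Dbp and Tef genes, and PER and CRY proteins return to repress that activity. BHLHE40 also represses at E-boxes, the REV-ERB receptors encoded by Nr1d1 and Nr1d2 repress Arntl, and the PAR bZIP factors DBP, TEF and HLF act on D-boxes in output genes. Per1 is in addition an immediate early gene in neurons, induced through CREB. Light, dopamine and glucocorticoids are known inducers of Per genes in various tissues.

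Signals are log2 values made by the authors with GCRMA, 1 per probe set and array. Levels are compared between arrays for 1 probe set, never between probe sets. A probe set was tested where its signal exceeded 4 in at least 3 arrays, which kept 11102 probe sets, 14 of them members, and at least 1 for each of the 10 genes. The 3 members left out, 1 for Per2 and 2 for Per3, exceeded 4 on 0 arrays, with highest readings of 3.34, 2.92 and 2.55. The Nr1d1 probe set passed with exactly 3 arrays above 4. A call means an adjusted p under 0.05 in limma over all tested probe sets, and errors of differences are limma's standard errors (SE).

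Srf averaged 5.43 and 5.19 in cocaine- and saline-treated mutants, against 7.10 and 7.16 in the controls given the same, so it was lower in the arrays that the titles call mutant. Arrays of 1 group correlated at 0.986 to 0.993, and arrays of different groups at 0.976 to 0.99. The striatal neuron markers Penk, Tac1 and Drd2 were well above the filter in every array, with lowest signals of 11.6, 10.7 and 8.13. Marker genes of astrocytes, oligodendrocytes, microglia and endothelial cells gave 0 calls between genotypes. Over all tested probe sets, 4.41% were called as higher in mutants and 5.05% as lower, averaged over treatments. In bulk tissue, fewer cells of a type and less RNA per cell cannot be told apart.

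The promoter windows of the genes that changed, where the reference table holds one, show which clock and activity elements stand close to the start sites. RefSeq windows (GRCm38.p6) were found for 8 of the 10 genes, all but Per2 and Bhlhe40. Per1 and Tef had more than 1 start site, which gave 10 windows in all. The 250 bases before each start were searched on both strands. Those of Per1, Cry1 and Per3 are printed 5′ to 3′ with every match in capitals. For Per3 the window was shortened to the 208 bases that lie outside the gene's annotated span, and both Per1 windows lie inside the span annotated for Per1.
Per1, start site 1 (chr11:69098699-69098948, + strand): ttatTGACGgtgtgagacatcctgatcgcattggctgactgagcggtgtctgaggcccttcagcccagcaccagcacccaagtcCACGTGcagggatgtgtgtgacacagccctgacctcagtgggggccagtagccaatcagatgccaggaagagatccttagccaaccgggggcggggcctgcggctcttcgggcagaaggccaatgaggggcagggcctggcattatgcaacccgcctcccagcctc
Per1, start site 2 (chr11:69099902-69100151, + strand): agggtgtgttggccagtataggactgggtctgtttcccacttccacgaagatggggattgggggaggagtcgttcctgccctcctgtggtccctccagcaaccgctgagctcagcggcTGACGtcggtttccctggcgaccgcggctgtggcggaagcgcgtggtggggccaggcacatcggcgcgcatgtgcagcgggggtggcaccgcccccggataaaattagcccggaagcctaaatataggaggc
Cry1 (chr10:85185055-85185304, - strand): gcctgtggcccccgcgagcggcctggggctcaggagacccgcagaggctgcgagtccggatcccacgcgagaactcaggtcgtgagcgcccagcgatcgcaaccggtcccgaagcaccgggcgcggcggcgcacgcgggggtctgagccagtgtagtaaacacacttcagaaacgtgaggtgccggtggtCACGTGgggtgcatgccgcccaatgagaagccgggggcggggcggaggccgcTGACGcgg
Per3 (chr4:151044708-151044915, - strand): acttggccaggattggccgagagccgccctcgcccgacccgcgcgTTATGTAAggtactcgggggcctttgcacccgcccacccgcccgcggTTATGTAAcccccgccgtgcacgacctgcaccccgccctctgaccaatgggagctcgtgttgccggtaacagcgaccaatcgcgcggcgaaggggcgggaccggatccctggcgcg
Per1 holds the E-box CACGTG at −166 from start site 1, and TGACG, the core of the cAMP response element, at −246 from start site 1 and at −132 from start site 2. Cry1 holds CACGTG at −60 and TGACG, read on its own strand, at −8. Per3 holds the D-box TTATGTAA at −205 and again at −158. No match overlapped another.

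Over all 32851 windows of this length, CACGTG occurred in 6.02% and TGACG in 17.8%. A D-box, searched as TTACGTAA, TTATGTAA, TTACATAA or TTATATAA, occurred in 1.43%. Among the member windows, 4 of 10 held CACGTG (both of Tef in addition to those above) and 4 of 10 held TGACG (the fourth being that of Cry2). The full cAMP response element TGACGTCA, present in 1.55% of all windows, and the CArG box to which SRF binds, present in 1.47%, were matched in 0 of the 10. These are matches of letters in short windows, not binding sites, and Per2 and Bhlhe40 were not searched.

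Cocaine raised 2 clock genes in each genotype, Per1 and Bhlhe40, while the receptor, cryptochrome and PAR bZIP genes gave no call. Of the 14 tested member probe sets, 2 were called as higher in mutants and 2 in controls, against 1.76% and 0.45% of all tested probe sets called as higher. Averaged over genotypes 3 were called as higher, against 2.11% of all tested probe sets, Per2 being the additional gene. Member probe sets called as lower numbered 0 in each of these comparisons, where 0.162%, 0% and 0.207% of all tested probe sets were called as lower in mutants, in controls and averaged. The median change of the 14 was 0.05 in mutants and 0.04 in controls on the log2 scale, beside −0.01 and 0.00 for all tested probe sets.

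Per1, the period gene that is also an immediate early gene, read 7.58, 7.61 and 7.52 in cocaine-treated mutants, against 6.30, 6.08 and 6.56 in saline-treated mutants. In controls it read 7.02, 7.35 and 7.03 after cocaine, against 5.91, 5.81 and 5.99 after saline. Every cocaine array lay above every saline array of either genotype. Per1 rose 2.38-fold in mutants (log2 change 1.25, SE 0.121, adjusted p = 7.92e-05) and 2.35-fold in controls (1.23, SE 0.121, adjusted p = 0.00013).

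Bhlhe40, which encodes an E-box repressor also known as DEC1, read 7.66, 8.22 and 7.74 in cocaine-treated mutants, against 6.45, 6.58 and 7.19 in saline-treated mutants. In controls it read 7.61, 7.84 and 7.45 after cocaine, against 6.29, 6.26 and 5.996 after saline. The treatments did not overlap in either genotype, and replicate 3 of the saline-treated mutants came closest to the cocaine arrays. Bhlhe40 rose 2.19-fold in mutants (log2 change 1.13, SE 0.191, adjusted p = 0.00592) and 2.74-fold in controls (1.45, SE 0.191, adjusted p = 0.00168). With no filter on dim probe sets the call in mutants was lost (adjusted p = 0.0513).

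Per2, a paralog whose protein also represses together with the cryptochromes, was called as higher with cocaine only when genotypes were averaged. It read 5.27, 5.34 and 5.05 in cocaine-treated mutants, against 4.26, 4.75 and 4.96 in saline-treated mutants. In controls it read 5.82, 5.45 and 5.42 after cocaine, against 4.97, 5.11 and 5.22 after saline. Cocaine and saline arrays did not overlap within either genotype. Changes of 0.56 in mutants (SE 0.163, adjusted p = 0.14) and 0.46 in controls (SE 0.163, adjusted p = 0.578) were not called singly.

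Averaged over genotypes, Per2 rose 1.43-fold (log2 change 0.51, SE 0.115, adjusted p = 0.0349). This call did not survive the absence of a filter (adjusted p = 0.15). Of the 12 fits without 1 array, 8 also lost it (highest adjusted p = 0.093). Those were the fits without replicate 1 or 2 of the cocaine-treated mutants, replicate 2 of the saline-treated mutants, replicate 1 or 2 of the cocaine-treated controls, or any 1 of the saline-treated controls.

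**Figure D1:**
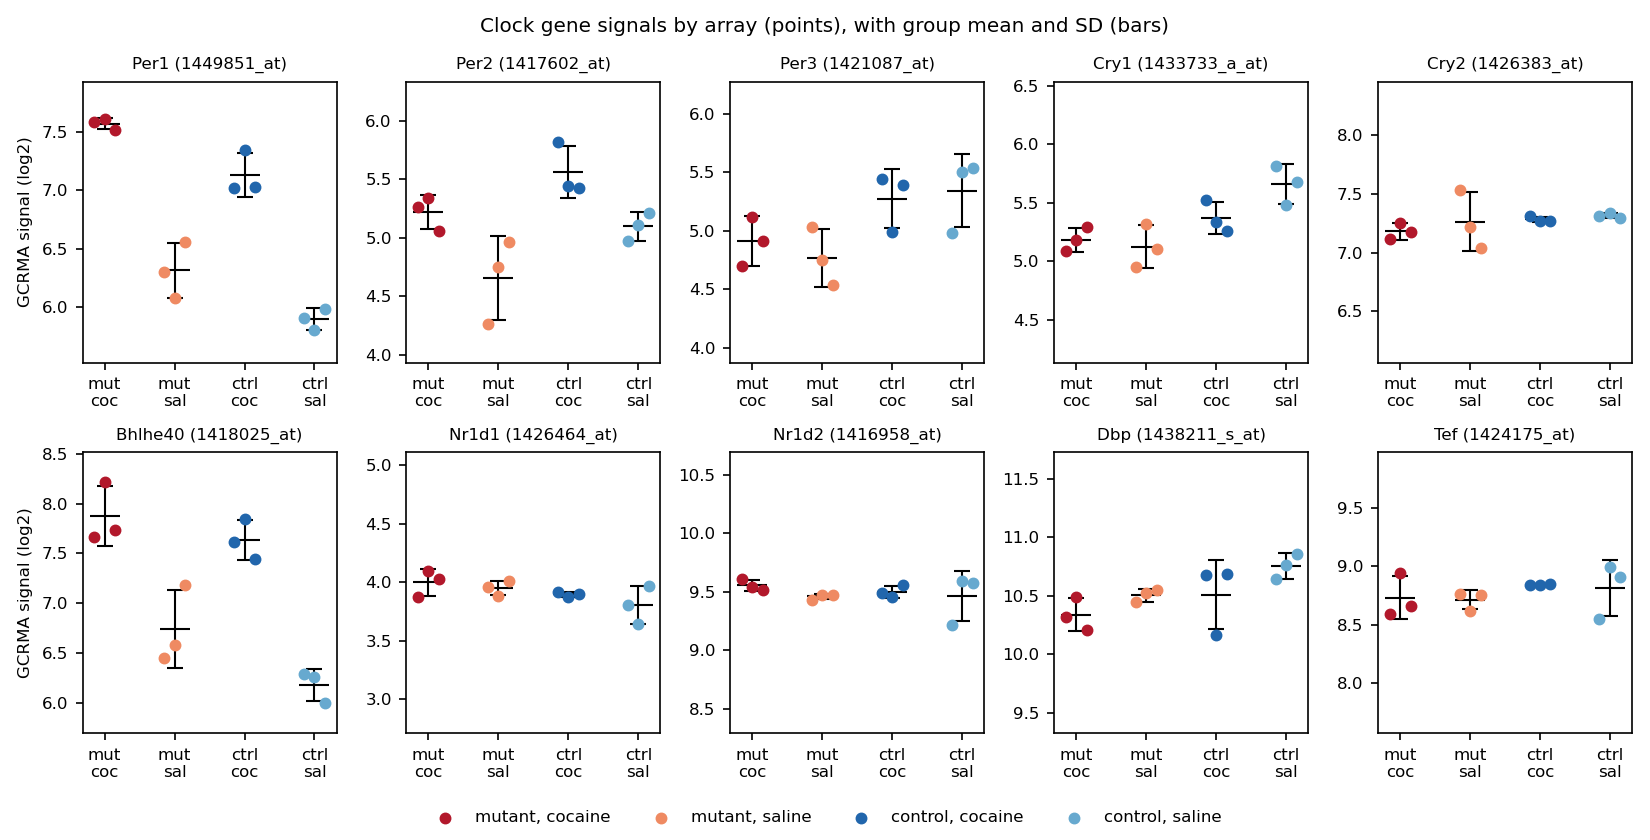
GCRMA signal (log2, vertical axis, its range set for each gene) of the brightest tested probe set of each clock gene, with 1 point per array, the group mean as a horizontal mark and the SD as error bars (n = 3 per group). Cocaine arrays of Per1 and Bhlhe40 lie above the saline arrays of their genotype, and Per1 is higher in mutants within each treatment.

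The remaining members gave no call for cocaine. Per3, the period gene dispensable for core rhythms, changed by 0.14 in mutants (SE 0.178) and −0.07 in controls (SE 0.178). Cry1, a potent repressor of CLOCK and BMAL1, changed by 0.06 in mutants and by −0.28 in controls (SE 0.116 each, adjusted p = 0.935 and 0.697). Cry2, its paralog, changed by −0.08 and −0.03 (SE 0.105 each). For Cry2 the 95% intervals were −0.31 to 0.14 in mutants and −0.26 to 0.19 in controls.

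The REV-ERB gene Nr1d2 read between 9.22 and 9.61 over all 12 arrays on its brighter probe set, and changed by 0.09 in mutants and 0.04 in controls (SE 0.0959 each). Nr1d1, which encodes REV-ERB alpha, read between 3.65 and 4.10, at the level of the filter, where GCRMA compresses differences. Its changes were 0.05 and 0.09 (SE 0.0922 each). The E-box output gene Dbp changed by −0.17 in mutants and −0.25 in controls on its brighter probe set (SE 0.13 each), and by −0.27 and −0.07 on the other (SE 0.134 each). Tef, another PAR bZIP gene, gave changes of −0.34 to 0.02 in mutants and 0.03 to 0.10 in controls over its 3 probe sets.

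**Figure D2:**
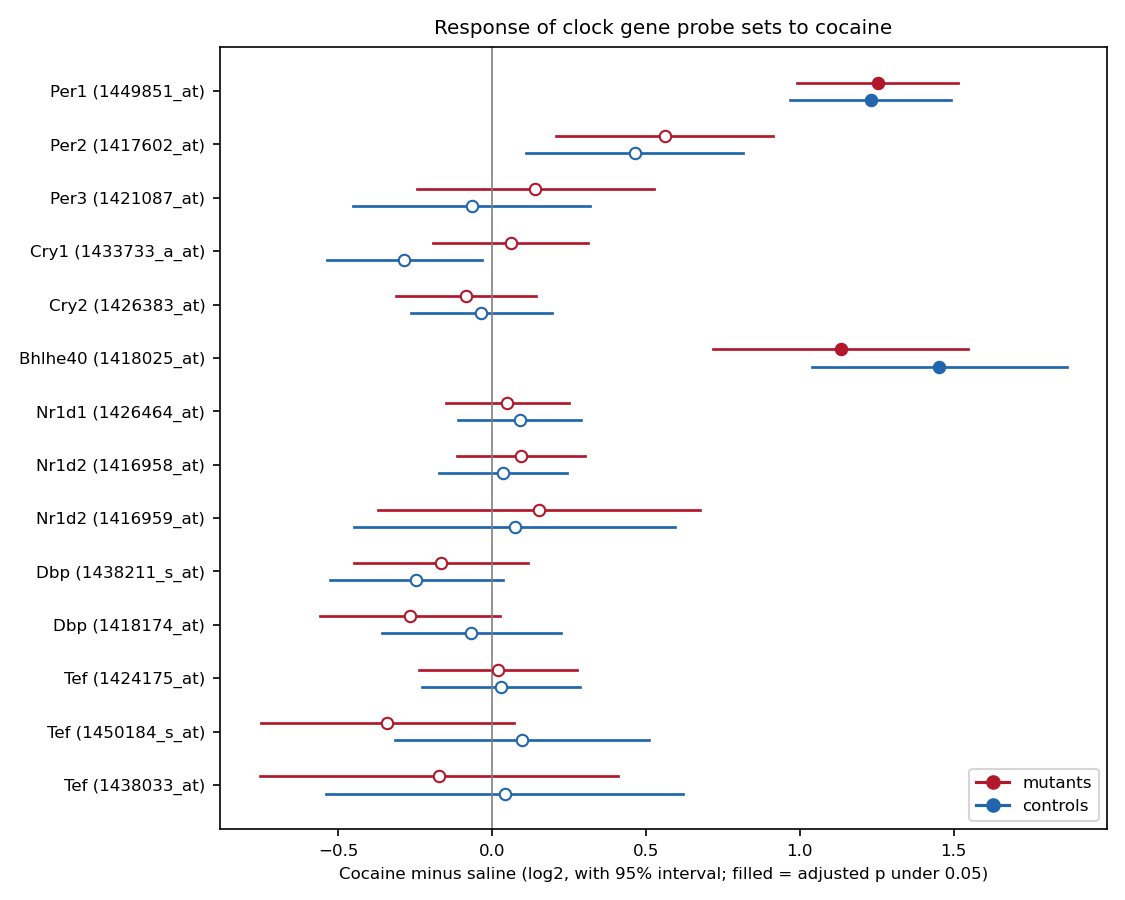
Log2 change with cocaine (cocaine minus saline, horizontal axis) of the 14 tested member probe sets in mutants (red, upper of each pair) and controls (blue), with 95% intervals from limma and filled points for adjusted p under 0.05. Per1 and Bhlhe40 stand at 1.13 to 1.45 in both genotypes, Per2 at 0.56 and 0.46, and all others between −0.34 and 0.15.

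Among markers of other cell types, 1 was called with cocaine. Gfap, an astrocyte filament gene, was 1.02 lower on the log2 scale in cocaine- than in saline-treated mutants (adjusted p = 0.0303). It averaged 4.03 and 5.05 in these groups, against 4.06 and 4.26 in cocaine- and saline-treated controls, near the filter. The other 6 astrocyte genes were not called. The summed astrocyte signal was 11.61 to 11.74 in cocaine-treated mutants, against 11.56 to 11.82 in saline-treated mutants. Aldoc (mean 11.2) sets most of this sum, which therefore cannot show the change of Gfap. The part of the Gfap difference in the clock gene changes was not tested.

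The difference in response between genotypes was called for 0 of the 14 member probe sets, where 0.0721% of all tested probe sets were called. Of all tested probe sets, 553 (4.98%) had an unadjusted p under 0.05, about the share that the threshold itself allows. No member probe set had an unadjusted p under 0.05 (lowest 0.0557, Cry1). The response of Per1 differed by 0.02 (mutant minus control, 95% interval −0.35 to 0.39). That of Per2 differed by 0.10 (−0.40 to 0.60) and that of Bhlhe40 by −0.32 (−0.91 to 0.26). A p that misses the threshold does not show that the genotypes responded alike, and for Bhlhe40 the interval reaches a response lower in mutants by 0.91.

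Per1 was set beside 8 other genes that cocaine or CREB is known to induce. This list was chosen for such induction and with earlier results of these data known, so its rise gives no independent support. Of 9 tested probe sets for 7 of these genes, 1 for Crem passed the filter through the cocaine-treated mutants alone (5.70, 5.11 and 4.33, with every other array at 3.76 or below) and was left out of the counts after its values were seen. Of the other 8, 8 rose in mutants and 7 in controls, against 1.76% and 0.45% of all tested probe sets. The median change of the 8 was 2.39 in mutants and 2.14 in controls, above the 1.25 and 1.23 of Per1. Fos rose by 3.64 in mutants and 4.16 in controls, and Egr1, which encodes a zinc finger factor, by 0.64 and 1.34. Crem, which encodes CREB-related activators and repressors, rose by 1.13 in mutants on its other tested probe set and gave 0.48 in controls without a call. The difference in response between genotypes was called for 0 of these 8 probe sets. In a list of 13 glucocorticoid-responsive genes that does not contain Per1, 2 of 20 tested probe sets rose in mutants, against 1.76% of all. Both were of the feedback inhibitor gene Errfi1 (0.63 and 0.59). In controls 0 of 20 rose or fell, against 0.45% and 0% of all. Averaged over genotypes 3 rose, from 2 genes, against 2.11%, and 0 fell, against 0.207%. The median change of the 20 was 0.29 in mutants and 0.13 in controls. Between genotypes over both treatments, 5 of the 20 were higher in mutants, against 4.41%, and 0 were lower, against 5.05%. The 5 belonged to only 2 of the 10 tested genes. With the brightest probe set of each gene alone, 1 was higher. The part of these genes in the Per1 changes was not tested.

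The saline arrays of mutants differed among themselves in the inducible clock genes. Replicate 3 of the saline-treated mutants had the highest Per1 (0.24 above its group mean), Per2 (0.30 above) and Bhlhe40 (0.44 above) of that group. The same array was highest of its group in Fos (0.91 above), Junb (0.53 above), Dusp1 (0.77 above) and Gadd45b (0.40 above). The other tested genes of the list set beside Per1 were mixed. Egr1 was also highest in that array (9.38), while Nr4a1 was highest in replicate 1 (7.66, against 7.61 in replicate 3). The brighter Crem probe set read 4.35, 4.97 and 4.53, which put replicate 3 below the group mean of 4.62. Among cocaine-treated mutants, replicate 2 was the highest in all 7 of Per1, Per2, Bhlhe40, Fos, Junb, Dusp1 and Gadd45b. Bhlhe40 was 0.35 and Gadd45b 0.37 above the group mean there. Nr4a1 was also highest in replicate 2, but Egr1 was lowest in it (9.97, 9.84 and 9.88 in replicates 1 to 3). Crem fell from replicate 1 to 3 (6.09, 5.77 and 5.40). Among cocaine-treated controls, replicate 2 was the highest in 5 of the 7 genes, with Per1 0.21 and Fos 0.30 above the group mean, and not in Per2 or Dusp1. Egr1 and Nr4a1 were highest there too, while Crem was level in replicates 1 and 2 (4.96 each). Saline-treated controls had no such common order, since Fos was highest in replicate 1 (0.83 above) and Per1 in replicate 3 (0.09 above). Without replicate 3 of the saline-treated mutants, the cocaine change in mutants was 1.38 for Per1 (adjusted p = 3.75e-05), 0.71 for Per2 (adjusted p = 0.0591) and 1.36 for Bhlhe40 (adjusted p = 0.00115). That array was left out because it was the highest of its group in these genes. Larger changes were therefore fixed by the choice and give no support to the response.

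**Figure D3:**
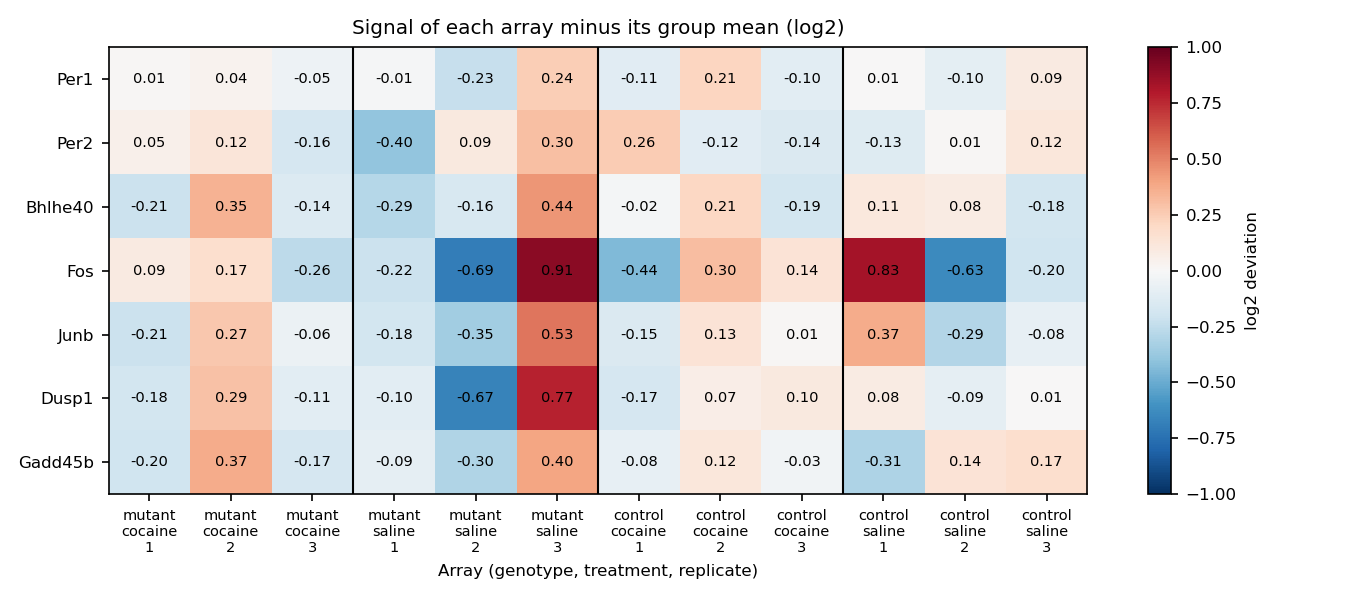
Signal of each of the 12 arrays minus its group mean (log2, colour and printed values) for Per1, Per2, Bhlhe40 and 4 immediate early genes. Replicate 3 of the saline-treated mutants is above its group mean in all 7 genes, by 0.24 to 0.91. Egr1, Nr4a1 and Crem are not shown.

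Averaged over treatments, Per1 was called as higher in mutants and Cry1 and Per3 as lower. That is 1 of 14 member probe sets higher (7.14%) and 2 lower (14.3%), against 4.41% and 5.05% of all tested probe sets. Counts this small do not show that the members depart from those shares. At an unadjusted p under 0.05 in that average, 2 members were higher and 5 lower, beside 23.4% of all tested probe sets in either direction. After cocaine limma called 0 members in either direction, where 2.27% of all tested probe sets were called as higher and 1.92% as lower. At an unadjusted p under 0.05 after cocaine, 1 member was higher and 1 lower, beside 17.2% of all tested probe sets in either direction. After saline limma called 0 members as higher and 1 as lower, where 1.34% and 1.64% of all were called. At an unadjusted p under 0.05 after saline, 2 members were higher and 3 lower, beside 15.6% of all tested probe sets in either direction. The median difference of the members over both treatments was −0.09, and that of all tested probe sets −0.01.

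For Per1 the values given above put every cocaine-treated mutant above every cocaine-treated control, and every saline-treated mutant above every saline-treated control. After cocaine it averaged 7.57 ± 0.0466 in mutants and 7.13 ± 0.186 in controls (SD, n = 3 each). After saline it averaged 6.32 ± 0.238 in mutants and 5.90 ± 0.0918 in controls. Per1 was 1.34-fold higher in mutants over both treatments (log2 difference 0.43, SE 0.0854, adjusted p = 0.00688). The difference was 0.44 after cocaine (adjusted p = 0.0652) and 0.41 after saline (adjusted p = 0.0982). The value after cocaine passed the threshold under 3 of the alternative settings (adjusted p = 0.036 to 0.0432). Of the 8 probe sets kept from the list set beside Per1, 5 were higher in mutants over both treatments and 1 was lower. Of all tested probe sets, 4.41% and 5.05% were. Fos was 1.27 higher (adjusted p = 0.0121) and Nr4a1 1.01 higher (adjusted p = 2.95e-05), while Egr1 was 0.46 lower. Fos read 5.17, 3.71 and 4.14 in saline-treated controls, near the filter. The part of these genes in the difference of Per1 was not tested.

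Cry1 read 5.09, 5.18 and 5.29 in cocaine-treated mutants, against 5.53, 5.33 and 5.26 in cocaine-treated controls. After saline it read 4.95, 5.32 and 5.11 in mutants, against 5.82, 5.48 and 5.68 in controls. The genotypes were separate after saline and overlapped after cocaine. Averaged over treatments, Cry1 was lower in mutants by 1.28-fold (log2 difference −0.36, SE 0.082, adjusted p = 0.0143).

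After saline alone the Cry1 difference was −0.53 (SE 0.116, adjusted p = 0.0257) and after cocaine −0.19 (adjusted p = 0.457). The difference between these values is the response term given above, which was not called. The call after saline was lost without a filter (adjusted p = 0.0791) and when only the saline arrays were fitted (adjusted p = 0.109). It was also lost without replicate 1 or 3 of the saline-treated mutants (adjusted p = 0.0934 and 0.0797) and without replicate 1 or 3 of the saline-treated controls (adjusted p = 0.0771 and 0.0805).

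Per3 read 4.70, 5.12 and 4.91 in cocaine-treated mutants, against 5.44, 4.99 and 5.39 in cocaine-treated controls. After saline it read 5.03, 4.75 and 4.53 in mutants, against 4.98, 5.50 and 5.54 in controls. The genotypes overlapped in each treatment, because 1 control array of each, replicate 2 after cocaine and replicate 1 after saline, lay among the mutants. Averaged over treatments, Per3 was lower in mutants by 1.38-fold (log2 difference −0.47, SE 0.126, adjusted p = 0.035). The call was lost without a filter (adjusted p = 0.121) and in 8 of the 12 fits that left out 1 array (adjusted p up to 0.0853). Those were the fits without replicate 1 or 3 of either cocaine group, or replicate 2 or 3 of either saline group.

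Per2 and Dbp gave negative differences without a call. Per2 differed by −0.39 over both treatments (SE 0.115, adjusted p = 0.0509), with every mutant array below every control array of the same treatment. Dbp differed by −0.21 and −0.29 on its probe sets (adjusted p = 0.184 and 0.0725). Bhlhe40 read 0.40 higher in mutants (SE 0.135, adjusted p = 0.084). Cry2 (−0.08), Nr1d1 (0.12), Nr1d2 (0.03 and 0.21) and Tef (−0.17 to −0.02) had adjusted p of 0.284 or more.

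**Figure D4:**
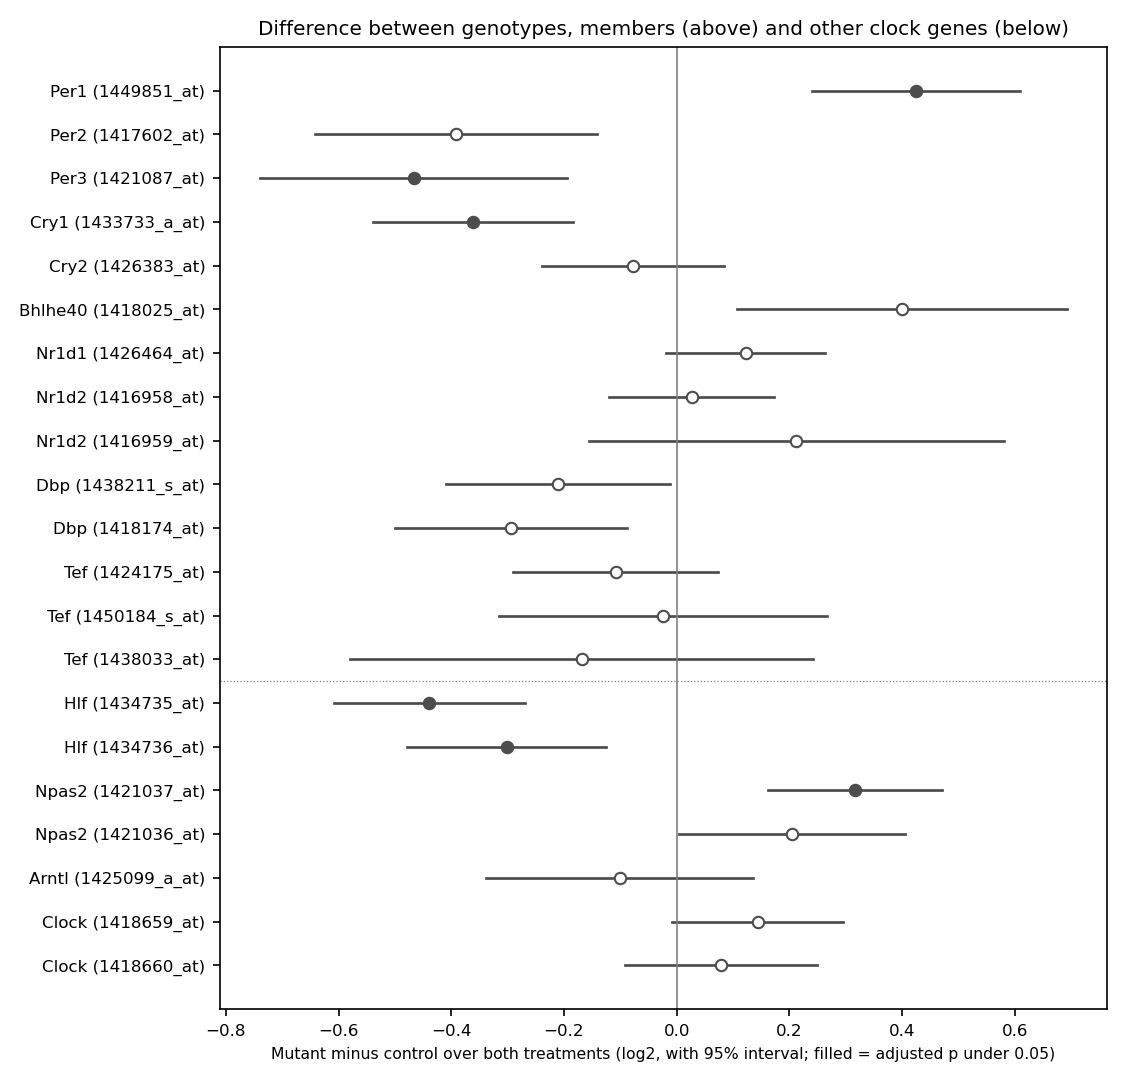
Mutant minus control averaged over treatments (log2, horizontal axis) with 95% intervals from limma, for the 14 tested member probe sets (above the dotted line) and for Hlf, Npas2, Arntl and Clock (below it). Filled points have an adjusted p under 0.05, with Per1 and Npas2 to the right of 0 and Per3, Cry1 and Hlf to the left.

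Of 27 other clock genes in a fixed list, 22 were on the array and 14 passed the filter with 29 probe sets. Between genotypes over both treatments, 1 of the 29 probe sets was higher and 3 were lower, against 4.41% and 5.05% of all tested probe sets. Hlf, the third PAR bZIP factor gene, was lower in mutants on both of its probe sets. The dimmer one read 6.47, 6.24 and 6.29 in cocaine-treated mutants, against 6.85, 6.44 and 6.67 in cocaine-treated controls. After saline it read 6.22, 6.14 and 6.20 in mutants, against 6.62, 6.90 and 6.73 in controls.

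The difference of Hlf on that probe set was −0.44 (SE 0.0783, adjusted p = 0.00343), and −0.30 on the brighter one (SE 0.0816, adjusted p = 0.0357). On the dimmer probe set the genotypes were separate after saline, where Hlf was also called alone (−0.56, adjusted p = 0.0143), and overlapped after cocaine. The call after saline was lost without replicate 2 of the saline-treated mutants or replicate 2 of the saline-treated controls (adjusted p up to 0.0646), and with no filter (adjusted p = 0.0514). The call on the brighter probe set was lost with no filter (adjusted p = 0.0878). It was also lost without replicate 1 or 3 of either cocaine group, replicate 2 of the saline-treated mutants, or replicate 2 or 3 of the saline-treated controls (adjusted p up to 0.0862).

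Npas2, which encodes a partner of BMAL1 prominent in forebrain, was higher in mutants on its brighter probe set (0.32, SE 0.0717, adjusted p = 0.0142). That probe set read 6.81, 6.77 and 7.02 in cocaine-treated mutants against 6.60, 6.52 and 6.54 in cocaine-treated controls, and the genotypes were separate after saline too. Its dimmer probe set read 0.20 higher without a call (adjusted p = 0.2). Arntl (−0.10) and Clock (0.14 and 0.08) gave no call.

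Lamp5, the tested gene of the cortical neuron list, moved with genotype as Cry1, Per3 and Hlf did, and was 0.64 lower in mutants. The summed signal of the 3 cortical genes on the array was 7.89 to 8.02 in cocaine-treated mutants and 8.01 to 8.10 in saline-treated mutants, against 8.38 to 8.74 in cocaine-treated controls and 8.55 to 8.82 in saline-treated controls. The other genes of that list on the array, Tbr1 and Neurod6, stayed below 4 in all 12 arrays. The sum therefore largely restates Lamp5. Among 7 striatal projection neuron genes, 3 were higher in mutants and 1 was lower over both treatments, against 4.41% and 5.05% of all tested probe sets. The part of these markers in the clock gene differences was not tested.

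With cocaine averaged over genotypes, the other clock genes gave 1 riser and 2 falling probe sets of 29. Of all tested probe sets, 2.11% were called as higher and 0.207% as lower. Both falling clock probe sets belonged to Usp2, a deubiquitinase gene under clock control. Its dimmer probe set read 6.62, 6.72 and 6.65 in cocaine-treated mutants, against 7.12, 6.95 and 6.95 in saline-treated mutants. In controls it read 6.76, 6.44 and 6.56 after cocaine, against 6.78, 6.82 and 7.03 after saline. The treatments did not overlap in either genotype.

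Usp2 changed by −0.32 on that probe set (SE 0.0704, adjusted p = 0.0335) and by −0.35 on the brighter one (SE 0.0813, adjusted p = 0.0418). The first of these calls held, among fits that left out 1 array, only without replicate 1 of the cocaine- or saline-treated controls (adjusted p otherwise up to 0.0914). The other held only without replicate 2 of either mutant group or replicate 1 of the saline-treated controls (adjusted p otherwise up to 0.117). With no filter both were lost (adjusted p = 0.0771 and 0.123).

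The riser was 1 of 5 probe sets of Csnk1d, a casein kinase gene that phosphorylates PER proteins (0.28, SE 0.0542, adjusted p = 0.0129). That probe set is of a type that can bind related transcripts, and the other 4 of Csnk1d changed by −0.05 to 0.17 without a call. The same Csnk1d probe set was called as higher in mutants alone (0.38, adjusted p = 0.0208) and as lower in mutants than in controls over both treatments (−0.19, adjusted p = 0.0423). The call in mutants was lost without any 1 of the saline-treated mutants, without replicate 1 or 2 of the cocaine-treated mutants (adjusted p up to 0.108), and with only the mutant arrays fitted (adjusted p = 0.0684). The call between genotypes held, of the 12 fits that left out 1 array, only in that without replicate 2 of the saline-treated controls.

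Rora, the tested gene of the ROR loop, which opposes REV-ERB on the Arntl promoter, changed by 0.19 and 0.18 with cocaine on its probe sets, without a call. Fbxw11, a ubiquitin ligase gene of PER turnover, and Nampt, an output gene of NAD synthesis, were called in 0 of the 7 comparisons. Bhlhe41, Timeless, Rorb, Nfil3, Arntl2, Avp, Vip and Wee1 had no probe set that passed the filter.

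The genes whose signals ran closest to a called member were found by the root mean square difference between profiles over the 12 arrays, each centred on its own mean. Closest to Per1 were Gm13889 (0.186), Dnajb5 (0.2) and Bhlhe40 (0.205), where Per1 itself departed from its mean by 0.669. Closest to Bhlhe40, with a departure of 0.718, were Per1 (0.205), Dnajb5 (0.216) and Dusp14 (0.289). For Per2 they were Pfkfb3 (0.197), P4ha1 (0.207) and Ryr3 (0.21), against a departure of 0.375 for Per2 itself. For Per3 they were Mef2c (0.126), Gpsm1 (0.131) and Celf1 (0.142), and for Cry1 Pdia6 (0.113), Rnf32 (0.123) and Mrpl9 (0.126). Per3 and Cry1 themselves departed by only 0.319 and 0.242, so their smaller distances go with flatter profiles. These distances describe the profiles and carry no test.

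Within groups, the members varied somewhat more than the array as a whole, in a comparison not matched for signal level. Their residual SD had a median of 0.18 over the 14 tested probe sets, against 0.133 over all tested probe sets. It was lowest for Nr1d1 (0.105), near the filter, and highest for the dimmest Tef probe set (0.403).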

How the data were processed

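Striatal RNA of 12 mice was hybridised to 1 Affymetrix array each. The authors deposited 1 log2 signal for each probe set and array. Per the submitters' processing notes it was made with GCRMA under R 2.4.1. Its log base was inferred from the values' range. The sources used here give neither the GCRMA options nor a genome build. GCRMA subtracts a sequence-based background, so differences near the low end are compressed. Nothing was renormalized.

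Groups follow the sample titles. A mean per group was fitted to all 12 arrays with limma 3.58.1 in R 4.3.3 (8 residual and 4.71 prior degrees of freedom), with 7 contrasts and empirical Bayes moderation. The contrasts share arrays and are not independent. Tests were two-sided with Benjamini-Hochberg adjustment within each contrast over 11102 probe sets with a log2 signal above 4 in at least 3 arrays, the 64 control probe sets left out. The script was tested on simulated data. The number of arrays limits the precision, and the titles call the 3 arrays of a group biological replicates. Probe sets with 1 symbol in the platform annotation were named.

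The members, the gene and marker lists and the naming rule were chosen with earlier results of these data known. Named were every member, Srf, those other clock genes that were called, the brightest uncalled one of each role, and the 3 genes closest to each called member. Alternatives were another filter, renormalization, array weights, a trended prior, the compared groups alone, the replicate number as a block, 1 probe set per gene, and leaving out each array.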

Additional observations from a re-analysis of the deposited data

How the results depend on the processing

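Per1 kept its cocaine calls in mutants, in controls and averaged, and its averaged genotype call, under every alternative tried and in all 12 fits without 1 array. The averaged genotype calls of Cry1, Npas2 and the dimmer Hlf probe set were kept in every one of those that tested the probe set, as were the averaged and control cocaine calls of Bhlhe40. None of the 20 calls on single genes changed direction, while 31 uncalled differences, each of 0.21 or less in size on the log2 scale, changed sign under some alternative or fit without 1 array. Apart from fits without 1 array, 10 of the 20 calls were lost under at least 1 alternative, and 6 uncalled results passed the threshold under at least 1.

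Without a filter the member count fell to 1 for cocaine in mutants (Bhlhe40 lost) and to 0 for genotype after saline (Cry1 lost), and 5 probe sets were called for the difference in response. With a floor of 6, Cry1 and Per3 were not tested, and 0 members were called for genotype after saline and 1 after cocaine (Per1). Array weights called 88 probe sets for cocaine in controls and 708 for genotype after cocaine, and 2 members for genotype after cocaine, 2 after saline and 6 averaged. A trended prior called 1 member for genotype after cocaine and 5 averaged. Fitted on the saline arrays alone, genotype gave 152 calls and 0 members, with fewer residual degrees of freedom. The cause of the other shifts was not tested.

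Leaving out 1 array gave 131 to 240 calls for cocaine in mutants, 40 to 56 in controls and 187 to 248 averaged. It gave 265 to 537 for genotype after cocaine, 219 to 350 after saline, 812 to 1088 averaged, and 6 to 9 for the difference in response. Member counts were 2 in mutants, 2 in controls and 2 to 3 averaged for cocaine, and 0 to 1 after cocaine, 0 to 2 after saline and 2 to 4 averaged for genotype. They were 0 for the difference in response. Counts moved by over 1.5 times for cocaine in mutants without replicate 1 or 2 of the cocaine-treated mutants (131 and 141). For genotype after cocaine they did so without replicate 1 of the cocaine-treated mutants (265) or any 1 of the cocaine-treated controls (267 to 308). For genotype after saline they did so without replicate 3 of the saline-treated mutants (219) or of the saline-treated controls (220).

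The titles number the replicates and name no shared litter, batch or day. Deviations of same-numbered arrays correlated at −0.145 to 0.116, against −0.101 to 0.16 for different numbers. These ranges overlap and cannot show whether same-numbered arrays shared a litter, batch or day. With the replicate block, 178 probe sets were called for cocaine in mutants, 46 in controls and 216 averaged, 387 for genotype after cocaine, 286 after saline and 907 averaged, and 7 for the difference in response. The block left 0 members for genotype after saline (Cry1, adjusted p = 0.0555). The averaged cocaine calls of Per2 (adjusted p = 0.072) and of both Usp2 probe sets (0.0887 and 0.0637) were not made with it, nor were the averaged genotype calls of Per3 (0.0624), the brighter Hlf probe set (0.0599) and Csnk1d (0.0615).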

Other observations

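Nfil3, which encodes a repressor at D-boxes that competes with the PAR bZIP factors, did not pass the filter because its signal exceeded 4 on 1 array. It read 4.16, 3.64 and 3.85 (log2) in cocaine-treated mutants, against 3.01, 2.82 and 3.01 in saline-treated mutants. In controls it read 2.98, 3.13 and 3.25 after cocaine, against 2.97, 2.99 and 2.87 after saline. The cocaine-treated mutants stood above the other 9 arrays. With no filter, limma called the change in mutants (0.94, SE 0.124, adjusted p = 0.00982) and not that in controls (0.17, SE 0.124), and the difference between them was 0.76 (SE 0.175, adjusted p = 0.652). Nfil3 was singled out after its values were seen, and signals this low depend on the background correction.

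The dim probe set of Per2, which was also left out of the tests, read 2.56 to 3.34 and changed with cocaine by 0.19 in mutants and 0.09 in controls (SE 0.165 each), where the tested probe set gave 0.56 and 0.46.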
